A study of Mus musculus with 12 samples.

Results

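The response to cobalt chloride (CoCl2) was examined in vascular smooth muscle cells of mice in which Hif1a is disrupted in smooth muscle (Hif1a△SMC, called deleted cells here). The comparison set 3 arrays of deleted cells given 150 µM CoCl2 for 24 h against 3 arrays of deleted cells given the same volume of PBS (phosphate-buffered saline) instead, 6 of the 12 arrays of the series. The other 6 arrays hold Hif1a fl/fl cells, which carry the floxed gene, under the same treatments (3 PBS, 3 CoCl2). They served to test whether a response differed between genotypes. They also entered the main fit, in which all 12 arrays share 1 estimate of each probe's spread, so they bear on the p-values of deleted cells. Every sample is labelled as male, and all cells were grown in smooth muscle medium with serum and a growth supplement. The labels do not name the Cre driver, the passage or the age of the animals. Nor do they say that the samples of 1 group are separate cultures or mice; the p-values therefore reflect the spread of these samples alone, which may be technical. No probe is named for Hif1a, so these arrays gave no check of the deletion. The number of arrays, 3 per group, limits the precision of each value.

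Cobalt inhibits the iron-dependent prolyl hydroxylases that mark the α subunits of the hypoxia-inducible factors (HIF-1α, encoded by Hif1a, and HIF-2α, encoded by Epas1) for degradation by the von Hippel-Lindau ligase. A stabilised α subunit pairs with ARNT and binds a short core sequence in target genes such as Pgk1, which encodes a glycolytic kinase. Cobalt also raises oxidative stress, which cells buffer with glutathione and superoxide dismutases. The array reports mostly noncoding transcripts, so the protein-coding targets of these pathways were seen mainly through transcripts that overlap or neighbour them.

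Promoter windows were taken from RefSeq (build GRCm38.p6, 300 bases around a start site) for 3 of the rises described below, for Pgk1, and for the 2 largest falls measured on all 6 arrays. They are shown so that the sequence at genes that moved in opposite directions can be compared. Capitals mark the HIF core ACGTG or GCGTG, read on either strand (CACGT or CACGC on the printed strand).
Gssos2 (chr2:155567628-155567927, plus strand): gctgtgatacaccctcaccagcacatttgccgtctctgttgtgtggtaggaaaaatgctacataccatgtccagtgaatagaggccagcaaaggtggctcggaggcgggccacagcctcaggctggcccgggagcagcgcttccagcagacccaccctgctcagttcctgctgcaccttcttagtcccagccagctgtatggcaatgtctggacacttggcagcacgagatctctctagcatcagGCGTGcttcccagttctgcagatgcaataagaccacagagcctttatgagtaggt
Mir22hg (chr11:75461289-75461588, plus strand): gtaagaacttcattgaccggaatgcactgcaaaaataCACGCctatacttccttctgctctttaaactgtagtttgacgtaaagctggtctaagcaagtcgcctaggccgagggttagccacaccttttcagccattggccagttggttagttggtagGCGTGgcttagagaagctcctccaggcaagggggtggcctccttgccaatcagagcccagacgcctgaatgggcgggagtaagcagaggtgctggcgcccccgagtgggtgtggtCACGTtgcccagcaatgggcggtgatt
Wincr1 (chr4:89050057-89050356, plus strand): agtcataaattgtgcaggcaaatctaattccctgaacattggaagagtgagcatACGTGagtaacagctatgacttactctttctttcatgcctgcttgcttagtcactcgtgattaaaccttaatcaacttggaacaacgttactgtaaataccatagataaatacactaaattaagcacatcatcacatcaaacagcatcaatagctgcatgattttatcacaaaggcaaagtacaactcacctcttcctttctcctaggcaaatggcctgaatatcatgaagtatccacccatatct
Pgk1 (chrX:106186850-106187149, plus strand): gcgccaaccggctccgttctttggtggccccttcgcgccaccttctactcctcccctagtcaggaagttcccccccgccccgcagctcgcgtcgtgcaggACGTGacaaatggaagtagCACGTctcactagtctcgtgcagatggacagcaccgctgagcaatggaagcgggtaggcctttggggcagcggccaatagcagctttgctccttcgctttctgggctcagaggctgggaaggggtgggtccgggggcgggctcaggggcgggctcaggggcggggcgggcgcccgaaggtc
Kcnd3os (chr3:105452906-105453205, minus strand): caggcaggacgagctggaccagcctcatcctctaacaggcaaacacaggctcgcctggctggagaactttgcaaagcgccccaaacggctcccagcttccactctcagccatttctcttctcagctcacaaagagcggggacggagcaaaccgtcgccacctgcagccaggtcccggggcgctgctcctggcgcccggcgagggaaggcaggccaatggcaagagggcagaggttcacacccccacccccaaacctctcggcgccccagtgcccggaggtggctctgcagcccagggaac
Scnn1b (chr7:121864788-121865087, plus strand): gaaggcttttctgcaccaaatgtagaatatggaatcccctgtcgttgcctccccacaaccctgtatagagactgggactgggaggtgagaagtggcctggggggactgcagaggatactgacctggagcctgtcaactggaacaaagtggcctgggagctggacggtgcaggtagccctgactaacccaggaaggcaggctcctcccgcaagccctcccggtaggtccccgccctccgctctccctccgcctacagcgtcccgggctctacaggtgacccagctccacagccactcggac
Mir22hg held 1 ACGTG and 2 GCGTG, Pgk1 held 2 ACGTG, and Gssos2 (the first of its 3 start sites) and Wincr1 held 1 core each. Kcnd3os and Scnn1b held none in these 300 bases. Of the 12 rises described below, 4 had a window in the RefSeq table and all 4 held a core, while 5 of the 13 falls with a window did, beside 46.7% of all 27025 genes with a window and 43.8% of all 32851 windows of that length. Among the printed windows the antioxidant core TGACNNNGC, also searched on both strands, was present once in Wincr1 and once in Scnn1b. The window of the second Gssos2 start site, not printed, held 1 as well, and the core was present in 12.4% of all windows. A match is a description of the letters and not a binding site.

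Mir22hg is the host transcript of miR-22, whose mature arms are shown with the seed (bases 2 to 8) in capitals because this host gene was among the rises. The arrays measured the host and not these mature RNAs.
mmu-miR-22-5p (chr11:75463734-75463755, plus strand): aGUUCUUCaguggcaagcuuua
mmu-miR-22-3p (chr11:75463772-75463793, plus strand): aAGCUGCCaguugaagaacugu

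The CoCl2 arrays of deleted cells were dimmer than the PBS arrays, which touches every value below. The 75th percentile of the log2 signal was 9.07 ± 0.08 (SD, n = 3) under PBS and 8.17 ± 0.10 under CoCl2, and 73.2% ± 0.909 and 54.7% ± 3.43 of probes were well above background. In floxed cells the percentile was 9.37 ± 0.16 and 9.26 ± 0.15. Every array was therefore scaled by subtracting its own 75th percentile, and all values below are log2 signals relative to it. The control probes did not move as 1 set. Of 10 E1A control probes, 4 (labelled 1, n9, n11 and a97, grouped after their values were seen) averaged 10.82 ± 0.12 under PBS and 10.99 ± 0.61 under CoCl2 before scaling, where CoCl2 array 2 stood at 11.7. The other 6 E1A probes averaged 7.13 and 5.38. ERCC control probe 12 read 10.99, 10.98 and 10.59 under PBS and 8.56, 9.20 and 8.98 under CoCl2, lower on every CoCl2 array. The part of these differences in the results was not tested. Slide and scan also moved with treatment: slide 3 held PBS array 3 and all 3 CoCl2 arrays, slide 2 held PBS arrays 1 and 2, and CoCl2 array 2 came from a later scan. Within slide 3 the PBS array lay before the CoCl2 arrays, so treatment and position cannot be told apart there.

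**Figure D1:**
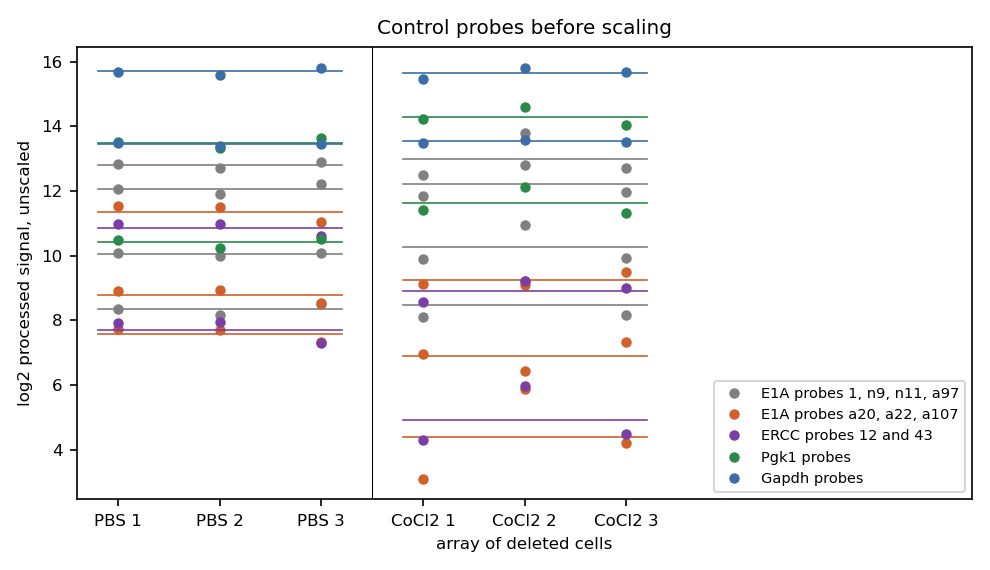
Log2 processed signal before scaling (vertical axis) of E1A, ERCC, Pgk1 and Gapdh control probes on the 6 arrays of deleted cells (horizontal axis). Points are arrays and lines are group means; on the CoCl2 arrays the 3 E1A probes a20, a22 and a107 and both ERCC probes lie lower, the Gapdh probes stay near their PBS level, as do the E1A probes 1, n9, n11 and a97 except on CoCl2 array 2, where they lie higher, and the Pgk1 probes lie higher on all 3. After scaling the Gapdh probes are higher under CoCl2, and they turn to slightly lower when scaled to the 4 E1A probes.

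Across the probes kept, those well above background on all 3 arrays of either group, CoCl2 was followed by more falls than rises, and the falls lay mostly among probes that dimmed to background. Of 68156 probes, 36035 (52.9%) passed limma's test at an adjusted p below 0.05 (Benjamini-Hochberg), 14202 (20.8%) higher and 21833 (32.0%) lower under CoCl2. The median change over these probes was -0.10. Changes of 2-fold or more numbered 3649 higher and 14649 lower.

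The balance turned over among the 48178 probes well above background on all 6 arrays. There 22693 (47.1%) passed, 13814 (28.7%) higher and 8879 (18.4%) lower, with a median change of 0.18. Of the 19978 other probes, 19828 were kept through the PBS arrays only and 150 through the CoCl2 arrays only, and 12954 of them were called lower against 388 higher, with a median of -1.13. A total of 10285 probes were well above background on all 3 PBS arrays and on no CoCl2 array, against 16 the other way round; such falls have only a bound on their size.

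The share of calls that were higher depended on the scaling. It was 39.4% over all probes kept and 60.9% over the all-6-array probes. Scaling to the 75th percentile of the all-6-array probes lowered all changes by 0.17 and gave 26.9% and 44.3%. Scaling to the 4 E1A probes, an alternative chosen after the data were seen, lowered all changes by 1.07 and gave 0.772% and 1.08%. With slide as a block, which rests on slide 3 alone in deleted cells, 15896 probes passed, 4967 higher and 10929 lower.

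**Figure D2:**
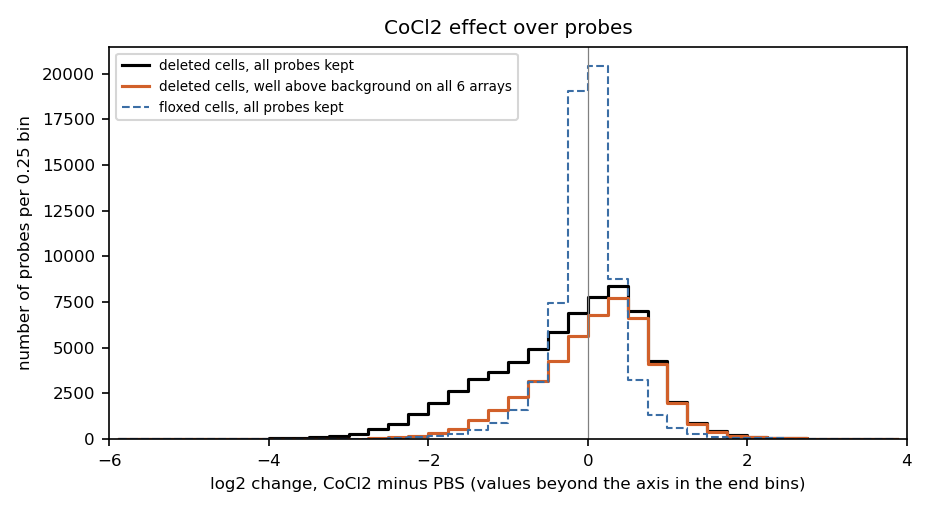
Number of probes (vertical axis) by log2 change (CoCl2 minus PBS, horizontal axis) in deleted cells, over the probes kept (black) and over those well above background on all 6 arrays (orange), and over the probes kept in floxed cells (dashed, median 0.01). The medians in deleted cells are -0.10 and 0.18, and the gap between the black and orange lines on the left is the probes not above background on all 6 arrays, with a median of -1.13; scaled to the 4 E1A probes the values would lie lower by 1.07.

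The transcripts of Pgk1, the phosphoglycerate kinase gene of glycolysis and a textbook HIF target, rose in the deleted cells. Its probe PGK1_3 read 4.48, 4.29 and 4.47 under PBS and 6.13, 6.30 and 5.92 under CoCl2. All CoCl2 arrays lay above all PBS arrays. The rise was 1.70 (SE 0.16, 3.26-fold, limma adjusted p = 2.96e-05), 1.64 within slide 3, and 0.63 when scaled to the 4 E1A probes (adjusted p = 0.0417). The second probe, PGK1_5, rose by 2.10 (4.29-fold). Floxed cells gave 1.71 and 1.81, and the difference between genotypes for PGK1_3 was -0.01 on the percentile scale (SE 0.22, limma adjusted p = 0.988). On that scale the 4 E1A probes rose by 1.05 to 1.11 in deleted cells and by 0.07 to 0.17 in floxed cells. The difference would therefore lie lower when scaled to those probes.
The probes of Gapdh, another glycolytic gene, rose by 0.99 and 0.86 under the percentile scaling but had changes of -0.09 and -0.22 when scaled to the 4 E1A probes.

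Among genes with an established symbol, 164 were tested, 27 (16.5%) higher and 62 (37.8%) lower. Of the 99 that were well above background on all 6 arrays, 27 (27.3%) were higher and 18 (18.2%) lower, which lies near the 28.7% and 18.4% of all such probes. The genes described next passed the test with arrays that did not overlap between groups. They are the 12 largest such rises, and 21 falls that join the 12 largest over all probes kept and the 12 largest among probes measured on all 6 arrays. A complete separation with the CoCl2 arrays above was seen in 25.2% of all probes kept, and with the CoCl2 arrays below in 34.0%; among the all-6-array probes these shares were 34.6% and 21.6%. All 12 rises were measured on all 6 arrays.

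The largest rise was Gssos2, a noncoding transcript that overlaps Gss, the gene of glutathione synthetase, which makes the cell's main thiol antioxidant. It read -3.22, -2.73 and -3.19 under PBS and 0.49, 0.10 and -1.18 under CoCl2. The CoCl2 arrays were all higher and spread more widely, with array 3 the lowest of them. The rise was 2.85 (SE 0.40, 7.22-fold, limma adjusted p = 0.00025) and 2.99 within slide 3, and of the 12 rises it alone still passed when scaled to the 4 E1A probes (1.78, adjusted p = 0.00093). In floxed cells its change was 1.30 (adjusted p = 0.0957).

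Wincr1, a noncoding RNA first described as induced by WNT signalling, read 1.72, 1.37 and 1.67 under PBS and 2.75, 2.61 and 2.98 under CoCl2. Mir22hg read 2.68, 2.56 and 2.87 under PBS and 4.13, 3.82 and 3.59 under CoCl2. In both, the CoCl2 arrays lay close together and clear of the PBS arrays. Wincr1 rose by 1.19 (SE 0.19, limma adjusted p = 0.00042) and Mir22hg by 1.14 (SE 0.17, limma adjusted p = 0.00029), and within slide 3 by 1.10 and 0.97. Scaled to the 4 E1A probes their changes were 0.12 and 0.07, and neither passed (limma adjusted p = 0.732 and 0.846). Mir133a-1hg, the host of miR-133a-1 and miR-1a-2, which are abundant in muscle, rose by 0.96 (adjusted p = 0.00165).

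Norad, a cytoplasmic RNA that binds Pumilio proteins, read 2.98, 3.15 and 3.35 under PBS and 4.15, 4.36 and 4.03 under CoCl2. Rpph1, the RNA of the RNase P ribozyme that trims transfer RNA precursors, read 4.99, 5.00 and 5.08 under PBS and 5.94, 6.12 and 5.76 under CoCl2. Neither gene's groups overlapped, and the PBS arrays of Rpph1 were nearly equal. Their rises were 1.02 and 0.92 on the percentile scale, 0.83 and 0.87 within slide 3, and -0.06 and -0.16 when scaled to the 4 E1A probes. Lncpint, a p53-responsive RNA, rose by 0.90 (limma adjusted p = 0.0069) and Brip1os, which overlaps Ints2 and Med13 and lies beside Brip1, by 1.04, and their changes under that scaling were -0.17 and -0.04.

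The other rises were Vmn1r-ps79, a vomeronasal receptor pseudogene (1.24), Scarna13, a guide RNA of Cajal bodies within the Snhg10 locus (1.14), Gsdmcl2, a gasdermin pseudogene (1.11), and Slc22a13b, a transporter pseudogene (1.10). Scaled to the 4 E1A probes, their changes ran from 0.03 (Slc22a13b) to 0.16 (Vmn1r-ps79), and none passed. Gsdmcl2 had a second probe with a change of -0.24. Slc22a13b lost its call in 9 of the 19 alternative settings. PBS array 3 was the highest PBS array in 8 of the 12 rises. It is the only PBS array in the change within slide 3, so these rises were smaller there than over all arrays, as were 9 in all. The share of all probes with this order was not counted. Within slide 3 the 12 rises ranged from 0.76 to 2.99, and 7 kept their call with slide as a block: Gssos2, Wincr1, Mir22hg, Gsdmcl2, Norad, Rpph1 and Lncpint.

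**Figure D3:**
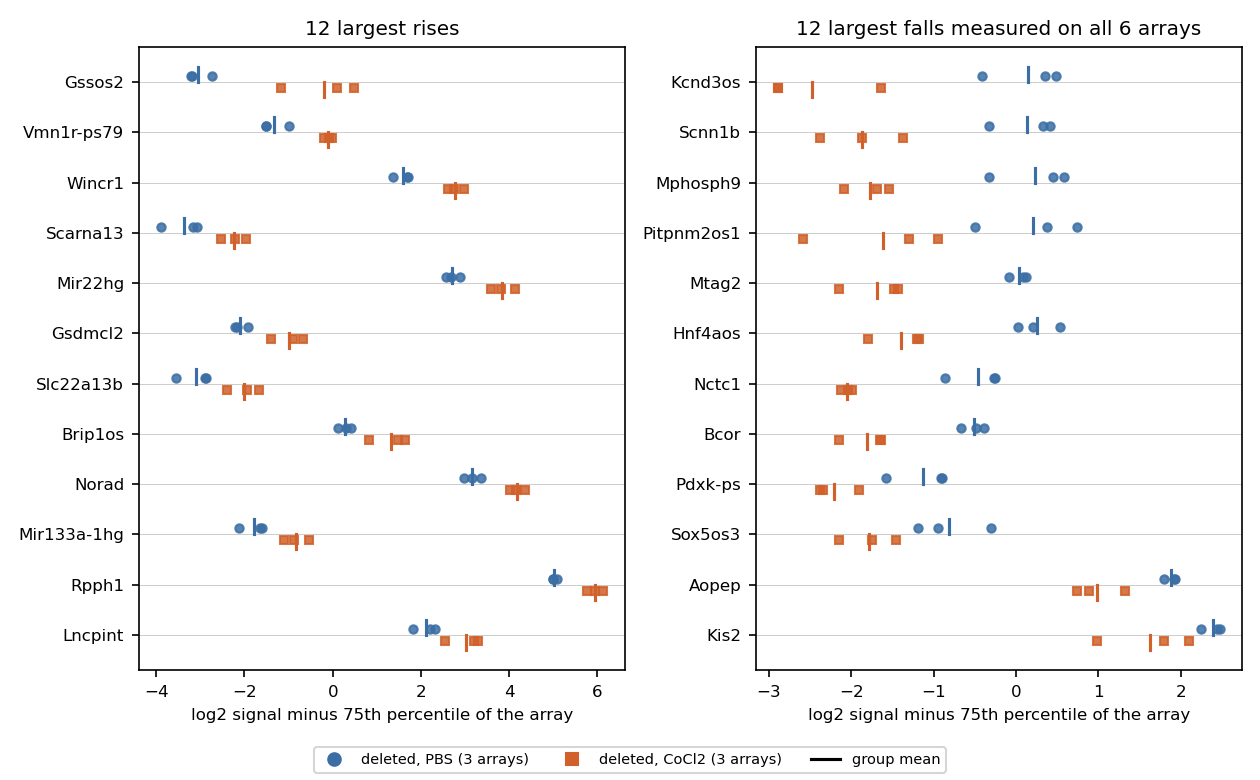
Log2 signal minus the array's 75th percentile (horizontal axis) of the 12 largest rises (left) and the 12 largest falls measured on all 6 arrays (right) in deleted cells. Points are arrays and bars are group means of 3 arrays; in every gene the CoCl2 and PBS arrays do not overlap. Scaled to the 4 E1A probes, Brip1os, Norad, Mir133a-1hg, Rpph1 and Lncpint turn to values between -0.17 and -0.04. Of the 12 rises only Gssos2 then still passes.

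The 2 largest falls measured on all 6 arrays, Kcnd3os and Scnn1b, lie at ion channel loci, and Mphosph9 fell nearly as far as Scnn1b (-2.01). Both kept their call in all 19 alternative settings, as did the falls of Mphosph9, Mtag2, Hnf4aos, Nctc1, Bcor and Aopep. Kcnd3os, a transcript overlapping Kcnd3, the gene of a transient outward potassium channel, read 0.35, 0.48 and -0.41 under PBS and -2.89, -1.64 and -2.89 under CoCl2. Scnn1b, which encodes a subunit of the epithelial sodium channel and is represented by a noncoding record, read 0.32, 0.42 and -0.33 under PBS and -2.39, -1.37 and -1.87 under CoCl2. In both, PBS array 3 was the lowest PBS array and CoCl2 array 2 the highest CoCl2 array. Kcnd3os fell by 2.61 (SE 0.32, limma adjusted p = 0.000121) and Scnn1b by 2.01 (SE 0.28, limma adjusted p = 0.000234). Within slide 3 the falls were -2.06 and -1.55.

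PBS array 3 was the lowest PBS array in 19 of the 21 falls. It is the only PBS array in the change within slide 3, so these same 19 falls were smaller there than over all arrays. The share of all probes with this order was not counted. Within that slide the 21 changes ranged from -2.50 to -0.60. With slide as a block 15 of the 21 kept their call. The part of the slide in these falls was not tested otherwise.

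Hnf4aos, which overlaps the gene of a hepatic nuclear receptor, read 0.20, 0.54 and 0.02 under PBS and -1.20, -1.80 and -1.18 under CoCl2. Nctc1, a noncoding transcript near Mrpl23 in the Igf2 and H19 region, read -0.27, -0.26 and -0.86 under PBS and -2.04, -1.99 and -2.13 under CoCl2. The CoCl2 arrays of Nctc1 lay closest together of the 21 falls. Hnf4aos fell by 1.65 (limma adjusted p = 0.000321), its second probe by 1.73, and Nctc1 by 1.59 (adjusted p = 0.000269). Pitpnm2os1, opposite a phosphatidylinositol transfer protein gene, fell by 1.82. Mtag2, which overlaps Ppfia3 and Lin7b, fell by 1.73, and Sox5os3, opposite the transcription factor gene Sox5, by 0.98.

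Of genes that also encode proteins, the noncoding records of Mphosph9, a centriole-associated phosphoprotein gene, Bcor, the BCL6 corepressor gene, and Aopep, an aminopeptidase gene, fell by 2.01, 1.30 and 0.89. Bcor read -0.66, -0.39 and -0.49 under PBS and -1.65, -1.64 and -2.15 under CoCl2. Of the 21 falls it alone also passed in floxed cells (-1.42, limma adjusted p = 0.0041). Aopep read 1.93, 1.79 and 1.92 under PBS and 0.74, 0.89 and 1.33 under CoCl2. Aopep holds the microRNA genes Mir23b, Mir27b and Mir24-1, and Kis2, which fell by 0.76, overlaps Mir106a. Pdxk-ps, a pyridoxal kinase pseudogene, fell by 1.08. Sox5os3 and Kis2 lost their call in 10 and 7 of the 19 alternative settings.

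A further 9 falls reached background on at least 1 CoCl2 array. Cdrt4os1 read -1.49, -1.48 and -2.02 under PBS and -5.46, -3.07 and -5.05 under CoCl2, and was well above background on 1 CoCl2 array. Plxna4os1, opposite a semaphorin receptor gene, read -0.38, -0.65 and -1.23 and then -5.25, -1.96 and -2.61, measured on 2 CoCl2 arrays. In both, CoCl2 array 2 was the brightest CoCl2 array. Their fitted falls were -2.86 and -2.52. The cardiac hypertrophy-related transcript chrf, named only in the file and measured on 1 CoCl2 array, had a fitted change of -1.97.

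The other 6 were well above background on no CoCl2 array, so each has only a bound: the PBS mean over a CoCl2 mean in which each array counts with whichever is brighter, the probe or the dimmest probe still well above background on that array. Ppp1r2-ps7, a phosphatase inhibitor pseudogene, was at least 2.68-fold lower (limma adjusted p = 0.00152), D14Ertd670e at least 1.98-fold and alncrnaec7 at least 1.49-fold lower. The bounds of Pcsk2os2, opposite a prohormone convertase gene, Krt74, a keratin pseudogene, and Olfr29-ps1, an olfactory receptor pseudogene, were at least 1.16-fold, 1.02-fold and 1.01-fold. These last bounds leave little room to state a size.

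Transcript types were described by their counts beside those of all probes kept (20.8% higher, 32.0% lower, median -0.10). Antisense and opposite-strand transcripts, which can share a promoter with or regulate the gene across from them, had 68 members on the array, of which 39 were tested: 4 were higher and 19 lower, with a median of -0.51. Of the 20 measured on all 6 arrays, 4 (20%) were higher and 6 (30%) lower, beside 28.7% and 18.4% of all such probes. Their median was -0.16 beside 0.18. The 4 rises were Gssos2, Brip1os, Hk1os (0.81) and Rbm3os (0.51), and the falls outside the genes above included Mkln1os (-1.25, measured on 1 CoCl2 array) and Emx2os (-0.74). Hk1os, opposite the hexokinase 1 gene, read -2.62, -2.78 and -2.82 under PBS and -2.17, -2.17 and -1.45 under CoCl2, and turned to -0.26 when scaled to the 4 E1A probes. Its second probe had a change of -0.15 and was not called.

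Of 9 microRNA host genes tested, 2 (22.2%) were higher, Mir22hg and Mir133a-1hg, and 1 (11.1%) lower, beside 20.8% and 32.0% of all probes kept. The fall, Mir1a-1hg, was well above background on no CoCl2 array, and its size has no bound above 1. The median was -0.50, and -0.07 for the 7 measured on all 6 arrays. Of those 7, 2 (28.6%) were higher, beside 28.7% of all such probes. Rian and Meg3, imprinted transcripts of a region with many microRNAs, had changes of -0.78 and -0.53 and did not pass, and the second Rian probe had a change of 0.77 and did not pass either. The level of the first Rian probe ranged from 0.45 to 2.05 under PBS and from -0.53 to 1.48 under CoCl2, and array 3 was the highest of both groups. Small nucleolar RNA host genes, whose spliced transcripts release guide RNAs from their introns, had 1 rise among 7, Snhg16 (0.62, limma adjusted p = 0.0265, and -0.46 when scaled to the 4 E1A probes), and a median of 0.21. Pseudogenes, 45 on the array and 26 tested, had 3 higher and 7 lower, with a median of -0.13.

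Of 58 listed long noncoding RNAs with a known name, 22 were tested by accession, with a median of -0.26. Of these, 7 (31.8%) were higher and 9 (40.9%) lower, beside 20.8% and 32.0% of all probes kept. Of the 15 measured on all 6 arrays 7 (46.7%) were higher and 2 (13.3%) lower, beside 28.7% and 18.4% of all such probes. The median of the 15 was 0.54 beside 0.18 for all such probes. The rises included Morrbid, a regulator of myeloid cell survival, which read 3.96, 3.86 and 3.79 under PBS and 5.02, 4.59 and 4.60 under CoCl2. It rose by 0.86 (limma adjusted p = 0.00144), by 0.47 without passing on its second probe, and turned to -0.21 when scaled to the 4 E1A probes. Firre, a nuclear architecture RNA, rose by 0.54 (-0.54 under that scaling). Among the falls the changes of Mhrt, a cardiac transcript of the myosin heavy chain region, and Fendrr were -1.79 and -1.84, each measured on 1 CoCl2 array, and Hottip, at the end of the HoxA cluster, was called lower but measured on none, so its size is not given. Ftx, an activator of Xist, had probes with changes of -2.38, called and measured on 1 CoCl2 array, and -0.02, not called.

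Few probes reported loci of the pathways themselves, so these lists were counted by transcripts within 10 kb and by clones linked to a locus. Of 50 listed HIF target genes, 5 had such a probe, 2 higher and 2 lower, beside 20.8% and 32.0% of all probes kept. Hk1os rose on 1 of its 2 probes, as above, and Gm35730, beside the phosphofructokinase gene Pfkp, by 0.51. Gm36056, beside the erythropoietin gene Epo, fell by 1.29, measured on 1 CoCl2 array, and 0610040F04Rik, beside Bhlhe40, was called lower but measured on none. The transcript beside Plod2, a collagen-modifying hydroxylase gene, had a change of -0.23 and did not pass. Scaled to the 4 E1A probes Gm35730 had a change of -0.57.

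Of 14 HIF pathway regulators, 2 had a neighbouring transcript, and they moved in opposite directions. Gm15283, beside Hif1a, read -3.54, -3.15 and -3.51 under PBS and -2.11, -2.58 and -2.14 under CoCl2. Gm4349, beside Arnt, the partner of the HIF α subunits, read -0.98, -1.14 and -1.70 under PBS and -4.30, -2.77 and -2.86 under CoCl2, measured on 2 CoCl2 arrays. The groups of neither transcript overlapped. Gm15283 rose by 1.12 (SE 0.30, limma adjusted p = 0.00802), beside 2.18 in floxed cells, a difference that did not pass (adjusted p = 0.093). Its call was lost when scaled to the 4 E1A probes (0.05, adjusted p = 0.915) and with slide as a block (adjusted p = 0.068). Gm4349 fell by 2.04 (limma adjusted p = 0.00103).

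Loci of the oxidative stress and metal response gave 6 probes from 35 listed genes, 3 higher and 2 lower beside 20.8% and 32.0% of all probes. Their median was 0.73 beside -0.10 over all probes, the highest median of the locus lists. Scaled to the 4 E1A probes it was -0.35 beside -1.17. The 5 measured on all 6 arrays had 3 higher and 1 lower, with a median of 1.05 beside 0.18 for all such probes. There the HIF pathway regulators, with 1 probe, stood higher at 1.12. A clone linked to Sod1, the gene of cytosolic superoxide dismutase, read -2.55, -2.51 and -2.33 under PBS and 0.11, 0.35 and -0.83 under CoCl2. It was far higher on all CoCl2 arrays, lowest on array 3 as in Gssos2. It rose by 2.34 (SE 0.27, 5.06-fold, limma adjusted p = 8.8e-05), by 2.21 within slide 3 and by 1.26 when scaled to the 4 E1A probes. In floxed cells the same clone rose by 1.55 (adjusted p = 0.0076). Gm31475, beside the sulfiredoxin gene Srxn1, rose by 1.05 (-0.03 when scaled to the 4 E1A probes). Gm33433, beside the glutathione reductase gene Gsr, fell by 0.78, and Gm41806, beside the ferritin heavy chain gene Fth1, by 1.10, the latter measured on 2 CoCl2 arrays.

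Loci of ion channels and pumps gave 8 probes, 2 higher and 4 lower beside 20.8% and 32.0% of all probes, with a median of -0.80. The 5 measured on all 6 arrays had 2 higher and 2 lower and a median of -0.14 beside 0.18 for all such probes. Besides Kcnd3os and Scnn1b, 4933417O13Rik, beside the potassium channel gene Kcnq1, fell by 2.11, measured on 2 CoCl2 arrays. Gm39407, beside the cation channel gene Trpc1, rose by 1.53, and its second probe by 1.94. A clone linked to Atp2b1, the gene of a plasma membrane calcium pump, read 1.29, 1.47 and 1.28 under PBS and 3.35, 2.68 and 2.26 under CoCl2. It rose by 1.41 (limma adjusted p = 0.0014) beside 0.19 in floxed cells, and that difference passed (adjusted p = 0.043). Scaled to the 4 E1A probes the Atp2b1 clone changed by 0.34 (limma adjusted p = 0.415) and the first Gm39407 probe by 0.45 (adjusted p = 0.191), and neither passed.

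The lists of cell cycle, matrix and interferon genes had 2, 4 and 2 probes, of which 2, 3 and 1 fell and none rose, beside 32.0% lower and 20.8% higher of all probes; so few probes do not set these lists apart. A clone linked to the mitotic kinesin gene Kif2c fell by 0.84 and Gm35058, beside Kif23, by 0.99, the only probes for 30 listed cell cycle genes. The matrix falls were a clone of Col11a1, a fibrillar collagen gene (-1.88, and -2.05 in floxed cells), a clone of the fibulin gene Fbln2 (well above background on no CoCl2 array, so without a size) and Gm40618 beside the laminin gene Lama2 (-1.01). Mx2, an interferon-induced GTPase gene, was at least 2.41-fold lower, and Gm31417, beside Ifit2, had a change of -0.34 and did not pass. With slide as a block Mx2 kept its call (limma adjusted p = 0.0219). The clones of Kif2c (limma adjusted p = 0.062), Col11a1 (0.056) and Fbln2 (0.281) lost theirs, as did Gm35058 (0.144) and Gm40618 (0.068). Of 3 probes for p53 and growth arrest genes, 2 were called lower, both well above background on no CoCl2 array, and Trp53cor1, measured on all 6 arrays, had a change of 0.21 and did not pass. No rise or fall of these small lists was tested as a group.

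Of 11 listed smooth muscle markers, only Carmn and a clone of Cald1 were matched directly. A further 3 probes report transcripts beside Acta2, Cald1 and Myocd and not the markers themselves. None of these probes passed the test. Carmn, a noncoding RNA of contractile smooth muscle, read 0.97, 1.16 and 0.58 under PBS and 0.43, 0.72 and 0.06 under CoCl2, and its groups overlapped (-0.50, limma adjusted p = 0.0605). A clone of Cald1, which encodes the actin-binding caldesmon, read 3.22, 2.95 and 3.03 under PBS and 3.32, 2.89 and 3.41 under CoCl2 (0.14). Transcripts beside Acta2, the smooth muscle actin gene, and Myocd, its transcriptional coactivator, had changes of -0.23 and -0.16. Gm38787, beside Cald1, had a change of -0.49 (limma adjusted p = 0.091), with groups that did not overlap. These 5 smooth muscle probes had a median of -0.23, and all 5 were called lower when scaled to the 4 E1A probes. Of 7 contractile probes only the clone of Synpo2, an actin-bundling gene, fell, by 0.52. A clone of the pericyte gene Rgs5 had a change of -0.20, and the lists of endothelial, macrophage, fibroblast, adipocyte, Schwann and mesothelial markers had no matched probe. In these bulk samples fewer cells of a type and less RNA per cell cannot be told apart.

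**Figure D4:**
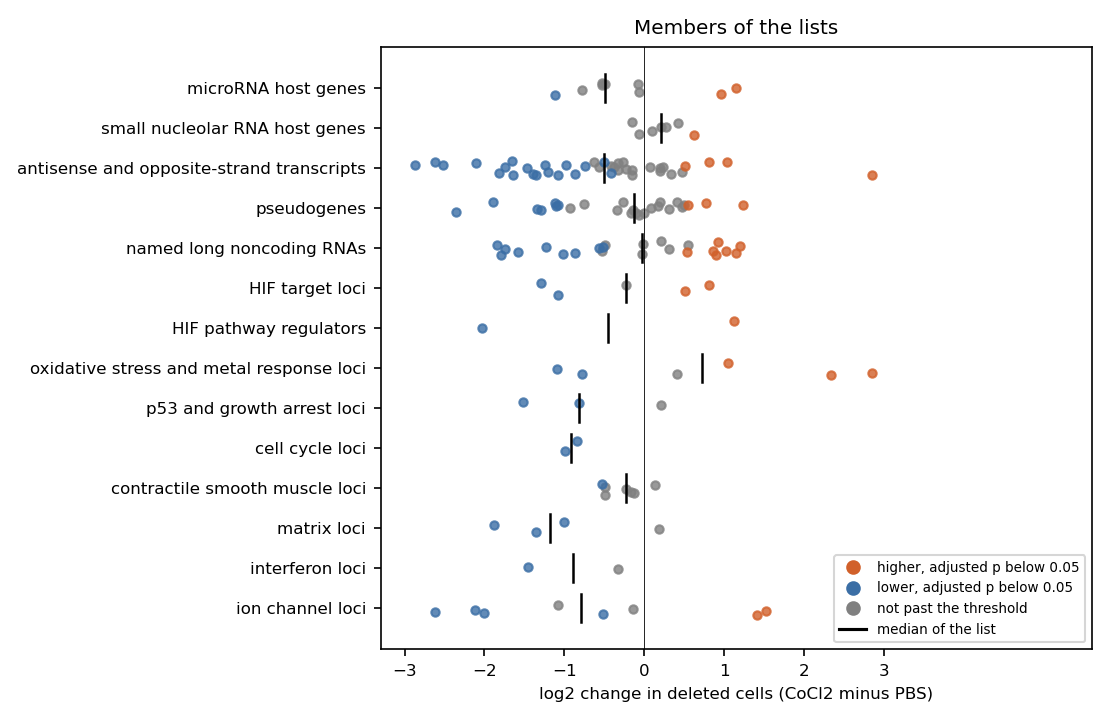
Log2 change in deleted cells (CoCl2 minus PBS, horizontal axis) of every tested member of the 14 lists plotted, 1 row of points per list, with Airn present as 2 probes. Orange and blue mark members that passed the test as higher or lower, grey those that did not, and the bar is the median of the list; antisense transcripts have 4 higher and 19 lower members, and of the lists plotted the oxidative stress list has the highest median, 0.73. Scaled to the 4 E1A probes, the median of every list plotted lies below 0, and Brip1os, Hk1os, Rbm3os, Mir133a-1hg, Snhg16, Norad, Rpph1, Lncpint, Morrbid, Firre, Pisd-ps3, Nlrp1c-ps, Gm35730 and Gm31475 turn to below 0.

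Clones that match a protein-coding locus, 490 in all, had 116 (23.7%) higher and 120 (24.5%) lower, beside 20.8% and 32.0% of all probes kept. Their median was 0.12. Of the 373 measured on all 6 arrays, 112 (30.0%) were higher and 52 (13.9%) lower, beside 28.7% and 18.4% of all such probes. Among the clones, 8 rises and 8 falls were picked for their size after the values were seen. Beside Sod1, the clone of Gprasp1, a receptor-sorting gene, read 2.11, 1.76 and 2.45 under PBS and 4.25, 3.90 and 3.94 under CoCl2, a rise of 1.93 that still passed when scaled to the 4 E1A probes. Clones of the ubiquitin ligase gene Rnf6 (2.03), the transfer RNA nucleotidyltransferase gene Trnt1 (1.71), the proteasome gene Psmd14 (1.63), the mitochondrial ribosome gene Mrpl47 (1.62) and the RNA export gene Fyttd1 (1.59) rose too. Of these 5, Trnt1, Psmd14, Mrpl47 and Fyttd1 did not pass when scaled to the 4 E1A probes (0.63, 0.56, 0.55 and 0.52), and Psmd14 did not pass with slide as a block (limma adjusted p = 0.104). The clone of Tnfrsf9 rose by 1.87 through CoCl2 array 3, at 1.41, with the other arrays at -2.01 and -1.91, and did not pass when scaled to the 4 E1A probes (0.79). The falls were led by Kalrn (-2.01), Bnip5 (-1.90) and Ly6g6d (-1.68), and included the cell cycle kinase gene Cdk2 (-1.28), which fell in floxed cells as well (-1.76).

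The response was set against that of floxed cells. Over the same probes limma called 3593 (5.27%) in floxed cells, 1630 (2.39%) higher and 1963 (2.88%) lower, and the difference of the CoCl2 effects passed in 14156 (20.8%), 12061 (17.7%) below 0 and 2095 (3.07%) above 0. Among the all-6-array probes the difference passed in 6018 (12.5%), 3960 (8.22%) below 0 and 2058 (4.27%) above 0. Of the 33 genes above, the difference passed in 15, which were falls in deleted cells, and in none of the 12 rises. These genes were chosen for their change in deleted cells, which is part of the difference, and 7 of the 15 were measured only on the PBS arrays or on 1 CoCl2 array, so the count describes them and supports nothing about the genotypes. In deleted cells Kcnd3os fell by 2.61 and in floxed cells its change was 0.00 (SE 0.32), a difference of -2.62 (SE 0.45, limma adjusted p = 0.00403). Mtag2 differed by -1.51 (adjusted p = 0.00424), Nctc1 by -1.63 (adjusted p = 0.00686) and Aopep by -0.95 (adjusted p = 0.0348).

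In floxed cells the changes of the 12 rises ran from 0.30 (Rpph1) to 1.30 (Gssos2). Wincr1, Mir22hg and Lncpint passed there, at 0.91, 0.75 and 0.89, and each difference missed the threshold: for Lncpint it was 0.01 (SE 0.33, limma adjusted p = 0.986) and for Wincr1 0.28 (SE 0.26, adjusted p = 0.46). Gssos2 differed by 1.56 (SE 0.57, adjusted p = 0.072). All these differences are on the percentile scale and would lie lower when scaled to the 4 E1A probes. Under that scaling the difference passed in 19 of the 33 genes. The dimming of the CoCl2 arrays was present in deleted cells alone, and its part in these differences was not tested. With slide as a block the difference passed in 0 of the 33 genes by limma (10 at an unadjusted p below 0.05) and in 190 of all probes; the floxed and deleted arrays lay mostly on different slides.

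**Figure D5:**
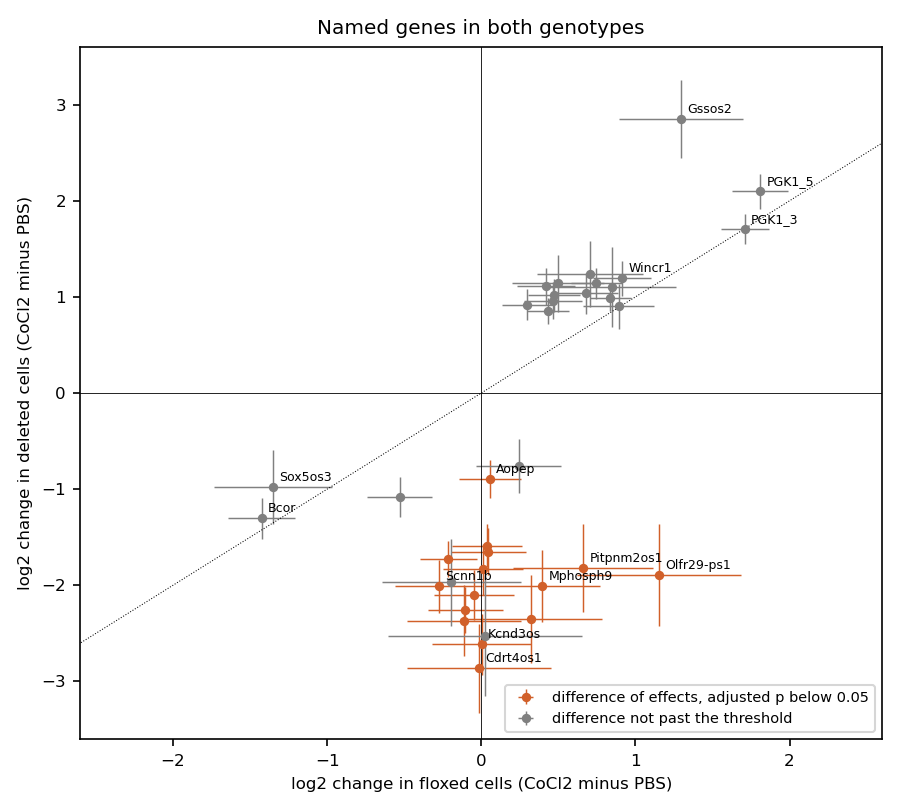
Log2 change with CoCl2 in floxed cells (horizontal axis) against deleted cells (vertical axis) for the named genes and the Pgk1 and Gapdh control probes. Points are fitted changes from 3 against 3 arrays, bars are SE, the dotted line is equal change, and orange marks the 15 genes whose difference passed the test; PGK1_3 lies on the line, while the orange points all lie below 0 on the deleted axis and below the line. Scaled to the 4 E1A probes, the Gapdh probes and 5 of the rises turn to below 0 in deleted cells. PGK1_3 then changes by 0.63 in deleted cells, so it would no longer lie on the line.

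The probe classes of the array differed in their counts, given here beside 20.8% higher and 32.0% lower of all probes kept. Of 6486 RefSeq predicted noncoding records, 646 were higher and 3368 lower, with a median of -0.67, and of 530 curated noncoding records 76 were higher and 221 lower, with a median of -0.34. NONCODE probes had a median of -0.24 and RIKEN clones of 0.02. The 30292 Agilent catalogue probes, not paired with genes in the files, had 7699 higher and 7981 lower, with a median of 0.04. On all 6 arrays the predicted records had a median of -0.11 over 3201 probes. Of these, 598 (18.7%) were higher and 1007 (31.5%) lower, beside 28.7% and 18.4% of all such probes. Curated records there had 24.3% higher and 19.9% lower (median 0.08), and NONCODE probes 25.5% and 21.6% (median 0.12). RIKEN clones had 29.9% and 14.8% (median 0.26), and Agilent catalogue probes 31.4% and 16.2% (median 0.21). The median of all such probes was 0.18. Of the 221 falls of curated records 58 were measured on all 6 arrays, and of the 7062 NONCODE falls 2659. The other falls lay on probes not well above background on every array. Where a symbol had several tested probes (147 symbols), all probes were called in 1 direction for 61, in both directions for 5, in part for 54 and not at all for 27.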

How the data were processed

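Each sample's total RNA was amplified and labelled with Cy3 for 1 Agilent array, per the labels' protocols. Spot intensity (linear) in the deposited scanner files came from Agilent Feature Extraction 11.5.1.1 (protocol GE1_1105_Oct12, design build mm9), per the file headers, although version 9.1 stands in the submitters' processing notes. A value table, also deposited, holds log2 intensity, which differed from the scanner values by a constant within 0.01 for all but at most 1 probe per array. The steps behind it are not given in the sources used here, but its 75th percentile lay between -0.0017 and -0.0006 on every array. It was used as an alternative, yet it repeats the main scaling, so its close match was fixed in advance.

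Background-corrected signals of spots without outlier marks were averaged as log2 per probe, and the array's 75th percentile was subtracted. Of 97836 probes, the 68156 that were well above background throughout either group of deleted cells were kept. The fit by limma 3.58.1 under R 4.3.3 (functions lmFit, eBayes; 12 arrays, 1 mean per group, 8 residual and 3.61 prior degrees of freedom) gave tests of the CoCl2 effect in deleted and in floxed cells and their difference, with Benjamini-Hochberg adjustment over all kept probes and a threshold of 0.05. The fit was tested on simulated data.

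Symbols were matched by accession to RefSeq (GRCm38.p6), which also gave neighbours within 10 kb. Named genes were the 12 largest rises and 12 largest falls with an established symbol, past the threshold and without overlap between groups, over all kept probes and again over those above background on all 6 arrays (12 rises and 21 falls in all), with the Pgk1 and Gapdh control probes and up to 6 members per gene list. Of several probes per symbol the brightest was used. The members and lists were chosen with earlier results of these data known. Same-numbered PBS and CoCl2 arrays of deleted cells did not all deviate together (correlations -0.16, 0.33 and 0.27), so numbers were not taken as pairs. Alternatives covered scaling, background correction (normexp with an offset of 50, on median spot signals), filters, outlier spots, slide and replicate blocks, and leaving out each array.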

Additional observations from a re-analysis of the deposited data

Results flagged for a closer look

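The CoCl2 effect differed between deleted and floxed cells for 15 of the 33 named genes by limma's test of the difference, and each value is the change in deleted cells minus that in floxed cells. The genes were chosen for their change in deleted cells, so the count is a description. Among genes measured on all 6 arrays of deleted cells it was -2.62 for Kcnd3os (adjusted p = 0.00403), -2.48 for Pitpnm2os1 (adjusted p = 0.0202), -2.40 for Mphosph9 (adjusted p = 0.0106), -1.74 for Scnn1b (adjusted p = 0.0124), -1.70 for Hnf4aos (adjusted p = 0.00768), -1.63 for Nctc1, -1.51 for Mtag2 and -0.95 for Aopep. In floxed cells their changes ran from -0.28 (Scnn1b) to 0.66 (Pitpnm2os1), and none passed there.

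The other 7 dimmed to background on at least 2 CoCl2 arrays of deleted cells, so the fitted differences are not exact sizes. They were -3.05 for Olfr29-ps1, whose change in floxed cells was 1.15, -2.85 for Cdrt4os1, -2.68 for Ppp1r2-ps7, -2.26 for D14Ertd670e, -2.15 for alncrnaec7, -2.06 for Pcsk2os2 and -1.85 for Krt74. All 15 lay below 0, as did 12061 of the 14156 probes with a difference past the threshold. The signal of the CoCl2 arrays was lower in deleted cells and the genotypes lay mostly on different slides, and the part of either was not tested beyond the slide block, under which none of the 15 passed.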

How the results depend on the processing

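Of the 33 named genes, 33 kept direction and call with outlier spots kept, in the deposited value table and with the replicate block, 32 scaled to the all-6-array probes, to 10 E1A probes, with no filter or in a fit of the 6 arrays alone, 31 with quantile normalization, 30 with slide as a random block, 29 with normexp, 24 of the 24 that remained in the refit of all-6-array probes, and 22 with the slide block or scaled to the 4 E1A probes. The last scaling, chosen after the data were seen, turned Brip1os to -0.039, Norad to -0.060, Mir133a-1hg to -0.11, Rpph1 to -0.16, Lncpint to -0.17, Hk1os to -0.26, Morrbid to -0.21 and the Gapdh probes to -0.088 and -0.22. The deposited value table repeats the main scaling, so its count was fixed in advance.

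The 36035 probes past the threshold became 23288 in the refit, since fewer probes were tested, and 15896 with the slide block, where 22693 of the all-6-array probes became 8625. A fit of the 6 deleted-cell arrays alone, without the spread of the floxed arrays, gave 30755 probes and 18824 all-6-array probes. The difference between genotypes passed in 15 named genes, in 19 scaled to the 4 E1A probes and in 8 with normexp and quantile normalization. It passed in 8 of 24 in the refit, which leaves out those of the 15 that dimmed to background. With the slide block it passed in 0. The cause of the changes outside the refit was not tested. Leaving out 1 array gave 28383 to 36294 probes, 16893 to 22927 all-6-array probes, 30 to 32 named genes and 13 to 19 differences. The replicate block gave 38303 probes, 24030 all-6-array probes and 16 differences, and no named gene lost its call. With CoCl2 arrays at 51.9% to 58.5% of probes above background, falls of dim probes have bounds only.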
